A study of Mus musculus with 60 samples.

Results

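Tbr1 and 8 other transcription factors and cofactors that set the fate of cortical projection neurons are described here in the prefrontal cortex of young mice. They were taken from the deposited gene table by symbol (Tbr1, Fezf2, Bcl11b, Sox5, Tle4, Foxp2, Zfpm2, Pou3f2 and Cux2). All 9 were found among 18088 genes, and 9 of 9 passed the filter on low values. The mice were C57BL/6J at postnatal day 25, either wild type (WT) or heterozygous for the K228E allele of Tbr1 (Tbr1+/K228E, here HT). Vehicle, fluoxetine or lithium reached the pups through the milk of the dam from day 3 to day 24. The 60 RNA-seq libraries form 12 groups of 5 by genotype, treatment and sex. No litter, dam or batch is named in the labels, so p-values measure the spread between these samples only. Fluoxetine blocks serotonin reuptake, and lithium is a mood stabiliser that inhibits GSK3 among other enzymes.

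Projection neurons of the cortex send axons either out of the cortex or to other cortical areas, and a small set of mutually regulating transcription factors sorts them into these kinds during development. Tbr1 is a T-box factor that specifies corticothalamic neurons of layer 6 and represses the subcerebral program led by Fezf2, a zinc finger repressor, and its downstream partner Bcl11b (also called Ctip2). Sox5 controls when deep-layer neurons take their identities, Tle4 (a Groucho corepressor), Foxp2 (a forkhead factor) and Zfpm2 (a GATA cofactor) are kept on in layer 6 neurons, and Pou3f2 (a POU factor) and Cux2 (a homeobox factor) belong to upper-layer neurons. Several also act elsewhere in the forebrain: Tbr1 marks mitral and tufted neurons of the olfactory bulb, and Bcl11b and Foxp2 are strongly expressed in medium spiny neurons of the striatum.

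The K228E allele changes a lysine codon of Tbr1 to a glutamate codon within the DNA-binding T-box. Tbr1 lies on chromosome 2 (61802930 to 61814114, plus strand, GRCm38). The altered codon, 1 of the 681 in its coding sequence, lies at the 3′ end of coding exon 1 of 6. The reference sequence around it is shown because this is the residue the allele alters, with the lysine codon in capitals (chr2:61805339-61805399, GRCm38, plus strand, read from the GENCODE transcript).
Tbr1 K228E site: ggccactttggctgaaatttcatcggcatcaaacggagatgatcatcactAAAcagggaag
The deposited values sum reads over the gene, so they do not separate the K228E allele from the normal one, and the level of Tbr1 is no check of the genotype labels.

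Values are normalised reads (reads over a scaling factor of their library), from libraries of 23930164 to 36515331 reads. Markers of 2 neighbouring tissues differed between libraries. The summed level of 7 olfactory bulb markers (Cdhr1, Doc2g, Eomes, Shisa3, Tbx21, Th and Trh) ranged from 5456 to 23729 in WT vehicle mice, from 364 to 23854 in HT vehicle mice, from 161 to 3884 under fluoxetine in both genotypes and from 96.6 to 15813 under lithium. No bulb marker was at 0 in any library. The mean log2 level of 12 striatal markers was 8.76 or less except in 5 libraries at 9.68 to 10.27, and of these markers Isl1 was at 0 in 35 libraries. The 5 were replicates 4 and 5 of the HT vehicle males, replicate 2 of each of the 2 WT lithium groups and replicate 1 of the HT lithium females. Slc17a7, the vesicular glutamate transporter of cortical excitatory neurons, was at 19078 or more in each library. The sexes also stood apart under vehicle: 52.5% of genes differed between them in vehicle mice (limma, adjusted p below 0.05) against 0.09% in drug-treated mice. This contrast does not show which sex is the unusual one. The 10 vehicle males were taken to be so from earlier work on these data. For males, vehicle and whatever sets these 10 libraries apart cannot be told apart, so drugs are compared with vehicle in females. In bulk tissue, fewer cells of a type and less RNA per cell cannot be told apart either.

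Per kilobase of annotated exon, Tbr1 had the highest mean level of the 9 over the 60 libraries, at 660.3 normalised reads. Cux2 followed at 373, Bcl11b at 277, Fezf2 at 243, Tle4 at 215 and Pou3f2 at 171. Sox5 stood at 97.8, Zfpm2 at 30.0 and Foxp2 at 19.7. The spread over libraries differed between the factors. The highest library was 6.21 times the lowest for Tbr1, 5.75 times for Fezf2, 4.91 times for Foxp2, 3.92 times for Bcl11b, 3.71 times for Cux2 and 3.21 times for Zfpm2. Pou3f2 (2.1 times), Tle4 (2.07 times) and Sox5 (1.8 times) varied least. Among the 12 group means of each gene, no neighbours in the order were further apart than their SDs allowed (0 of 11 pairs of neighbours with separate mean ± SD, for each of the 9 genes).

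Tbr1 was higher in HT than in WT mice in each of the 6 pairs of groups that share treatment and sex, and under fluoxetine no HT library overlapped a WT library. In WT vehicle mice Tbr1 stood at 1197, 1644, 2019.6, 2894 and 3218 normalised reads in females and at 844, 2035, 2739.7, 2806 and 3309 in males. In HT vehicle mice the females were at 1167, 3168, 4304, 4323 and 4980.3 and the males at 2909, 4362, 4558, 4932 and 4938. Of the 10 HT vehicle libraries 7 were above all 10 WT vehicle libraries, and the lowest HT library (a female) lay among the lowest of WT. The vehicle females averaged 2195 ± 846 in WT and 3588 ± 1502 in HT, and the vehicle males 2347 ± 955 in WT and 4339.8 ± 837 in HT (SD, n = 5 each).

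Under fluoxetine Tbr1 stood at 3629.5, 3695, 3699.9, 3825 and 3839 in WT females and at 3191, 3562, 3612, 3643 and 3790.3 in WT males. The HT females were at 4619, 4742, 4994, 5078 and 5238 and the HT males at 3841, 4311, 4379, 4743 and 4886. All 10 HT libraries were above all 10 WT libraries, with the closest pair at 3839 (WT) and 3841 (HT). How many of all genes separated these mice by genotype in this way was not counted. The spread was narrow in these mice, with a coefficient of variation of 5.1% in WT and 8.9% in HT, against 37.6% and 30.6% in vehicle mice.

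Under lithium the WT females were at 1862, 2139, 3195, 3772 and 3883 and the WT males at 2354, 2766, 2843, 3519 and 3792. The HT females were at 3403, 4172, 4344, 4390.4 and 5241 and the HT males at 2241, 4138, 4289, 4597 and 4743. Here 8 of 10 HT libraries exceeded every WT library, and 1 HT male at 2241 lay low among WT.

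**Figure D1:**
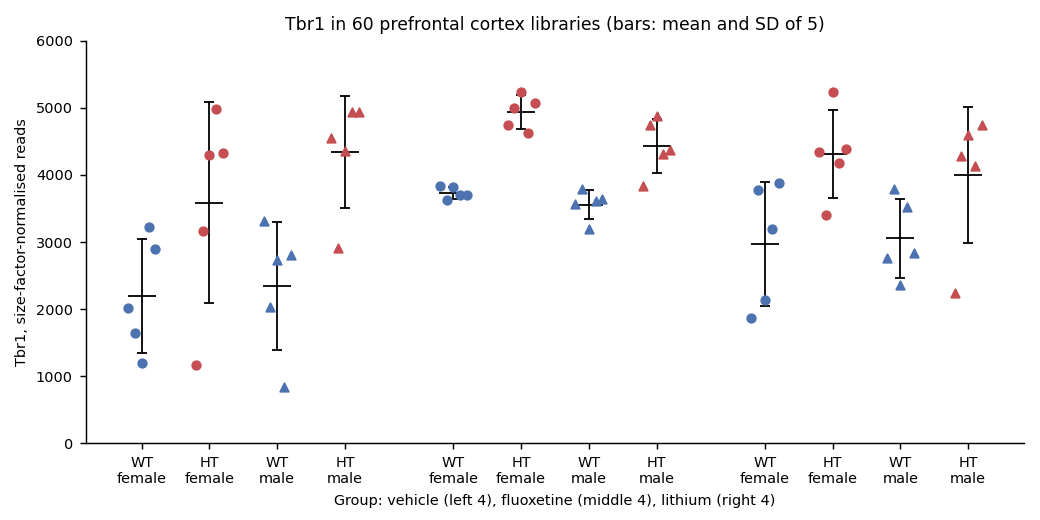
Tbr1 in each library (normalised reads, y axis) by group (x axis), WT in blue and HT in red, females as circles and males as triangles, with the mean and SD of 5 libraries as a bar with whiskers. Under fluoxetine the 10 HT points (3841 to 5238) all lie above the 10 WT points (3191 to 3839), while the vehicle groups overlap.

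Averaged over the 3 treatments and both sexes, Tbr1 was 0.55 (log2, SE 0.11, adjusted p = 0.00518) higher in HT mice, a 1.47-fold difference (95% interval 0.33 to 0.77 on the log2 scale). The test was limma over 17781 genes with Benjamini-Hochberg adjustment, and a gene is called changed at an adjusted p below 0.05. In this comparison 1.21% of all genes were called, and Tbr1 was the 1 member of 9 called. Under vehicle alone Tbr1 differed by 0.82 (log2, SE 0.19, adjusted p = 0.0629), under fluoxetine by 0.36 (log2, SE 0.19, adjusted p = 1) and under lithium by 0.47 (log2, SE 0.19, adjusted p = 0.522). None of these 3 was called, where 0.0337%, 0.0112% and 0.00562% of genes were. Their SEs come from 1 spread of the gene shared by all 12 groups. Within groups the log2 SD of Tbr1 was 0.035 to 0.136 under fluoxetine and 0.318 to 0.851 under vehicle. When only the fluoxetine groups were fitted, Tbr1 was called between genotypes there. The share of all genes called in that fit was not counted. For Tbr1 alone, an exact permutation test of genotype within sex (two-sided, 10 against 10 libraries, 63504 arrangements) gave p = 0.0121 under vehicle, p = 3.15e-05 under fluoxetine, the smallest it can give, and p = 0.0111 under lithium. It was added after the values had been seen. The HT excess did not differ by a called amount between treatments: the genotype by fluoxetine interaction was -0.47 (log2, SE 0.27, adjusted p = 0.348) and the genotype by lithium interaction -0.35 (log2, SE 0.27, adjusted p = 0.812), with intervals of -1.01 to 0.08 and -0.90 to 0.20. In these 2 comparisons 0% and 0% of genes were called by limma, 2628 and 711 genes had an unadjusted p below 0.05, edgeR called 0 in each, and DESeq2 called 2 and 1. None of the 9 factors was among these or had an unadjusted p below 0.05 (0 by limma, edgeR and DESeq2). With library quality weights, 1 of 14 alternatives, the genotype by fluoxetine interaction was called for Tbr1 (-0.53, adjusted p = 0.0071), Fezf2 (-0.59, adjusted p = 0.0168) and Zfpm2 (-0.49, adjusted p = 0.0134). Over the 14 the adjusted p of each ran up to 1.

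The call for Tbr1 averaged over treatments was kept in each of 60 fits that left out 1 library (0.50 to 0.61, adjusted p = 0.000128 to 0.00986). It was not kept in females alone (0.54), in males alone (0.56) or without the 10 vehicle males (0.46, adjusted p = 0.0588). Over its 17 alternatives the adjusted p ran from 7.27e-11 to 0.304, with 14 calling Tbr1. The median difference of the bulb markers between HT and WT was -1.47 in vehicle mice, -1.03 under lithium and 0.46 under fluoxetine (0 of 7 markers called in each by limma, edgeR or DESeq2, with 7, 0 and 0 at an unadjusted p below 0.05 under vehicle, lithium and fluoxetine). With 2 covariates for these markers (their mean log2 value, and the same mean taken back to the linear scale, together called the bulb covariates), the Tbr1 difference was 0.22 under vehicle (SE 0.05), 0.36 under fluoxetine (SE 0.05), 0.33 under lithium (SE 0.05) and 0.30 averaged (SE 0.03). With them Tbr1 was called under fluoxetine, under lithium and in the average, but not under vehicle. Under vehicle, leaving out replicate 1 of the HT females gave 1.004 (adjusted p = 0.00132). Tbr1 was also called there without replicate 2 of the HT males, replicate 4 of the WT females or replicate 1 of the WT males (0.89 to 0.90), within a range of 0.66 to 1.004 over the 20 libraries.

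None of the other 8 factors was called between genotypes with all libraries, in any treatment or in the average. Fezf2, which drives the subcerebral program, had the smallest adjusted p of the 8 under vehicle and in the average. It ran from 195 to 787 (median 509) in WT and from 189.8 to 992 (median 817) in HT vehicle mice (10 libraries each), which overlap over nearly the whole range. Its difference was 0.64 (log2, SE 0.23, adjusted p = 0.0798) under vehicle, 0.11 (log2, SE 0.23, adjusted p = 1) under fluoxetine and 0.33 (log2, SE 0.13, adjusted p = 0.137) averaged. With the bulb covariates Fezf2 was at -0.06 under vehicle and 0.04 averaged. It was called under vehicle without replicate 1 of the HT females (0.83, adjusted p = 0.00432), replicate 2 of the HT males (0.70), replicate 4 of the WT females (0.74) or replicate 1 of the WT males (0.73), over a range of 0.48 to 0.83. Without that HT female Sox5 (0.20) and Zfpm2 (0.40) were called under vehicle too. The Fezf2 average was called without replicate 1 of the HT vehicle females (0.40).

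Bcl11b, the partner of Fezf2 in subcerebral neurons, had means of 2565 ± 511 in WT and 2479 ± 639 in HT vehicle mice (SD, n = 10 each). Averaged over treatments it differed by -0.15 (log2, SE 0.08, adjusted p = 0.255). Sox5 was at 0.06 and Tle4 at 0.06 in that average, with intervals of -0.03 to 0.15 and -0.07 to 0.19. Foxp2 was at -0.21 (SE 0.10, adjusted p = 0.207) and Zfpm2 at 0.06. The upper-layer factors Pou3f2 and Cux2 were at 0.05 and 0.10, with intervals of -0.03 to 0.13 and -0.03 to 0.22. The median of the 9 members was 0.06, beside -0.00 over all genes tested. Under vehicle, where 0 members were called by limma, 2 had an unadjusted p below 0.05 (Tbr1 and Fezf2), and edgeR called 0 and DESeq2 called 1 (Tbr1). Under fluoxetine 0 members had an unadjusted p below 0.05, under lithium 2 did (Tbr1 and Foxp2), and edgeR and DESeq2 called 0 in both. Of all 17781 genes, 5912 under vehicle, 524 under fluoxetine and 1489 under lithium had an unadjusted p below 0.05. DESeq2 called 805 of all genes under vehicle.

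**Figure D2:**
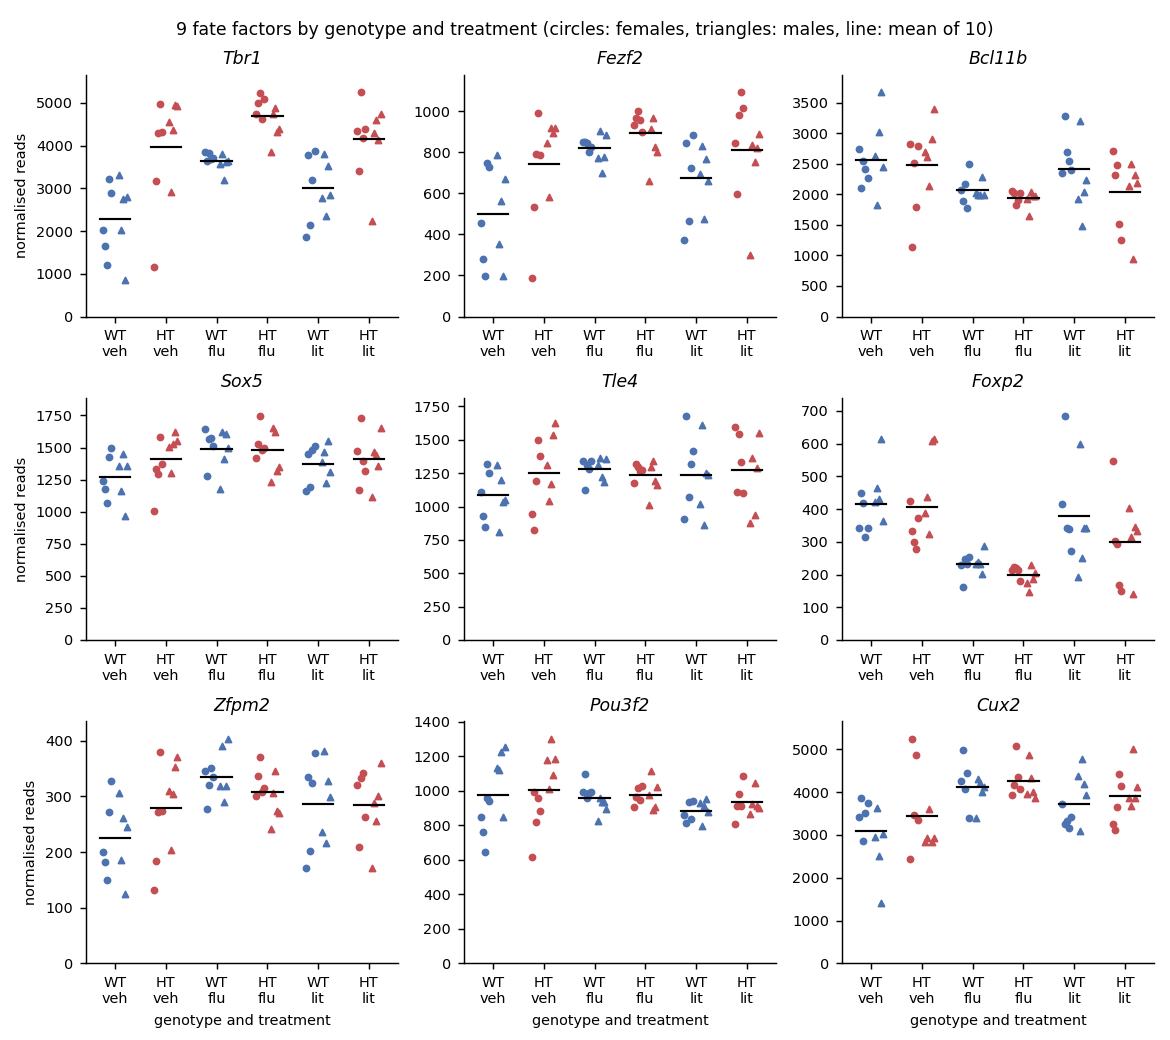
Normalised reads of the 9 factors (y axes, starting at 0) in the 60 libraries by genotype and treatment (x axes; veh vehicle, flu fluoxetine, lit lithium), WT blue, HT red, circles females, triangles males, lines means of 10 libraries. Under fluoxetine the points of most factors draw together, as for Tbr1 in WT (3191 to 3839), and Foxp2 sits low (147 to 289).

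**Figure D3:**
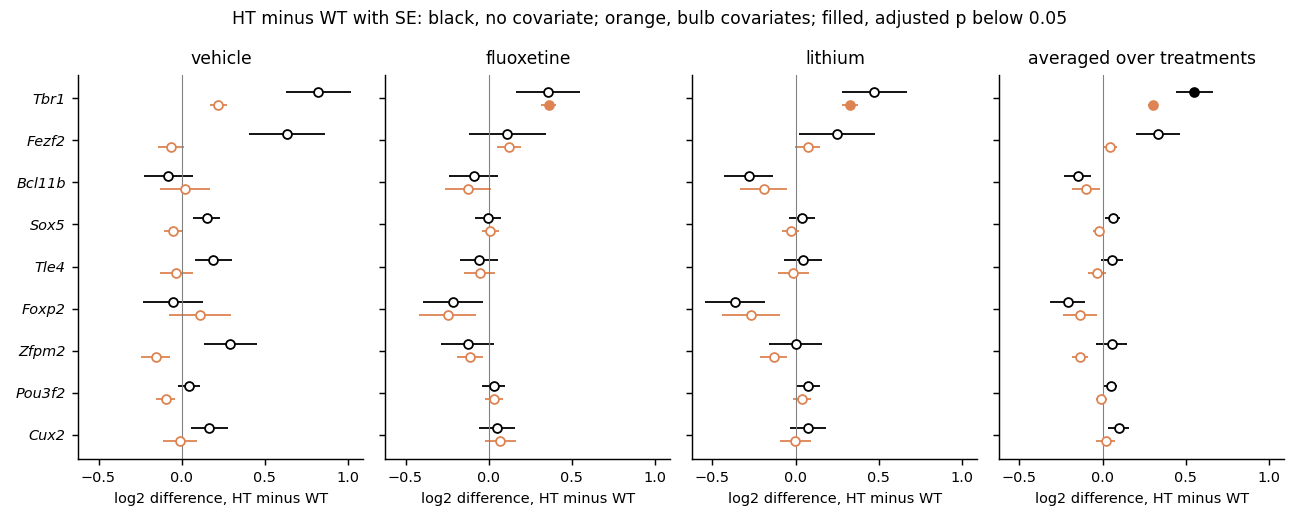
Difference between HT and WT (log2, x axis) with its SE for the 9 factors (y axis) under each treatment and averaged, without covariates (black) and with the bulb covariates (orange), filled where the adjusted p was below 0.05. Only Tbr1 has filled points, at 0.55 without covariates in the average and at 0.36, 0.33 and 0.30 with them.

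Genes that Tbr1 is known to regulate were read from a list of 8. None was called between genotypes by limma in the vehicle, fluoxetine, lithium or averaged comparison (0 of 8 in each). At an unadjusted p below 0.05 there were 5, 0, 1 and 4 of them, edgeR called 0, 0, 0 and 1, and DESeq2 called 4, 0, 0 and 3. Of all 17781 genes tested, 5912, 524, 1489 and 4230 had an unadjusted p below 0.05. By edgeR 9, 3, 1 and 224 of all genes were called, and by DESeq2 805, 8, 2 and 549. Reln, a secreted protein that guides neuron positioning, was at -0.54 under vehicle (SE 0.15, adjusted p = 0.0735) and -0.29 averaged (adjusted p = 0.0628). Auts2, a gene regulator linked to neurodevelopment, was at -0.23 under vehicle (adjusted p = 0.0782) and -0.14 averaged (SE 0.04, adjusted p = 0.051). Under vehicle both were called in 4 of 20 fits that left out 1 library (Reln at -0.63 to -0.47 and Auts2 at -0.28 to -0.18 over the 20), namely without replicate 1 of the HT females, replicate 2 of the HT males, replicate 4 of the WT females or replicate 1 of the WT males. Both were called in the average when certain single libraries were left out (Auts2 in 15 of 60 fits, at -0.16 to -0.13 over all 60, and Reln in 8 of 60, at -0.33 to -0.26). The smallest adjusted p of each came without replicate 1 of the HT vehicle females (Auts2 -0.16, adjusted p = 0.00677, Reln -0.32, adjusted p = 0.0126). With the bulb covariates Reln was at -0.11 and Auts2 at -0.06 in the average. The median of the 8 was 0.04 under vehicle and -0.03 averaged.

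Of 28 other regulators of cortical neuron fate, limma called 0, 1, 0 and 1 between genotypes in the vehicle, fluoxetine, lithium and averaged comparisons, the same gene in both. At an unadjusted p below 0.05 there were 17, 2, 1 and 11 of the 28, edgeR called 0, 1, 0 and 1, and DESeq2 called 2, 1, 0 and 1. Of all 17781 genes tested, 5912, 524, 1489 and 4230 had an unadjusted p below 0.05. By edgeR 9, 3, 1 and 224 of all genes were called, and by DESeq2 805, 8, 2 and 549. Tshz2, a zinc finger factor of deep-layer neurons, rose in HT mice under fluoxetine by 0.42 (SE 0.08, adjusted p = 0.0135) and in the average by 0.18 (SE 0.04, adjusted p = 0.0281). Under vehicle Tshz2 was at -0.03 (SE 0.08, adjusted p = 0.842) and under lithium at 0.16 (adjusted p = 0.596). It was at 0.41 under fluoxetine and 0.27 averaged with the bulb covariates. Over 16 alternatives the fluoxetine difference of Tshz2 stayed between 0.41 and 0.43 with an adjusted p of 2.86e-09 to 1, and 14 of them called it; in females alone and males alone it was not called. Without replicate 3 of the WT fluoxetine females it was 0.40 (adjusted p = 0.0528). With the bulb covariates it was called under lithium as well (0.23, adjusted p = 0.0071, within a range of 0.0071 to 1 over 16 alternatives). The median of the 28 was 0.24 under vehicle and 0.02 under fluoxetine.

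Fluoxetine was set against vehicle in females of each genotype. In WT females 4 of the 9 factors rose (Tbr1, Fezf2, Zfpm2 and Pou3f2), Foxp2 fell, and 4 were not called. Here 39.8% of all genes were called, 20.9% higher and 19% lower, so the count of members is near that of genes in general. Tbr1 was 0.86 (log2, SE 0.27, adjusted p = 0.0117) higher, and the 5 fluoxetine females (3630 to 3839) were all above the 5 vehicle females (1197 to 3218). Fezf2 stood at 195, 279, 456, 726 and 747 in WT vehicle females and at 802, 825, 843, 849 and 852 in WT fluoxetine females. The groups did not overlap, and the difference was 0.98 (log2, SE 0.32, adjusted p = 0.015). How many of all genes had groups without overlap here was not counted. Zfpm2 was 0.57 (log2, SE 0.23, adjusted p = 0.0395) higher with overlapping groups. Pou3f2 was 0.29 (log2, SE 0.10, adjusted p = 0.0168) higher, from 648 to 957 in vehicle females and from 956 to 1096 in fluoxetine females. Sox5 (0.25), Tle4 (0.24) and Cux2 (0.28) were not called, nor was Bcl11b (-0.22).

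Foxp2 was lower under fluoxetine than under vehicle in females of both genotypes, called in WT only, with no overlap between the groups. The share of all genes without such overlap was not counted. In WT females it stood at 314, 341, 341, 419.8 and 448 under vehicle and at 163, 229, 232, 249 and 252 under fluoxetine. In HT females it stood at 277, 298, 331, 374 and 425 under vehicle and at 181, 214, 215, 221 and 223 under fluoxetine. The difference was -0.73 (log2, SE 0.26, adjusted p = 0.0204) in WT females and -0.68 (log2, SE 0.26, adjusted p = 0.166) in HT females, called in WT only. Males set against vehicle males differed in Foxp2 by -0.93 in WT and -1.30 in HT, both called. In these values the drug and whatever sets the vehicle males apart cannot be told apart. Replicates 4 and 5 of the HT vehicle males were also high in striatal markers (mean log2 9.86 and 9.68). The genotype by fluoxetine interaction of Foxp2, over both sexes, was -0.16 (SE 0.26, adjusted p = 0.733), with an interval of -0.67 to 0.35.

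In HT females 0 of 9 members were called for fluoxetine, and 0% of all genes by limma (4063 genes at an unadjusted p below 0.05, 0 by edgeR and 403 by DESeq2). Unadjusted p was below 0.05 for 6 of the 9, and edgeR and DESeq2 called 0 of them. Tbr1 was at 0.62 (SE 0.27, adjusted p = 0.193), Fezf2 at 0.73, Zfpm2 at 0.48 and Pou3f2 at 0.20, each with the sign it had in WT females. The bulb markers differed by a median of -3.22 in HT females (0 of 7 called by limma or edgeR, 7 by DESeq2, 7 at an unadjusted p below 0.05). In HT females fitted with the bulb covariates Tbr1 was at 0.07, Fezf2 at 0.07, Zfpm2 at 0.02 and Pou3f2 at 0.07. In HT males set against vehicle males they were at 0.05, 0.01, -0.08 and -0.23, none called. These HT female values share no library with the WT ones.

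The bulb markers fell with fluoxetine in WT females, all 7 of them, with a median of -5.15 beside 0.01 over all genes tested. With the bulb covariates 0 of 9 factors were called for fluoxetine in WT females. Tbr1 was then at -0.23, Fezf2 at -0.31 and Zfpm2 at -0.31, with signs opposite to those without the covariates, while Foxp2 was at -0.27 and Pou3f2 at 0.02. In these females the bulb marker mean (log2) was 9.13 to 10.89 under vehicle and 4.07 to 7.37 under fluoxetine, without overlap. The adjusted values therefore rest on slopes fitted within all 12 groups and cannot separate the drug from the markers. With a covariate for 6 markers of cortical excitatory neurons 0 members were called as well. Single libraries also mattered. Without replicate 3 of the WT vehicle females no member was called (Tbr1 0.66, adjusted p = 0.0703, Fezf2 0.70, Foxp2 -0.68, Zfpm2 0.44 and Pou3f2 0.20). Without replicate 2 of that group Fezf2 (0.83), Foxp2 (-0.66) and Zfpm2 (0.51) were lost, and without replicate 2 of the WT fluoxetine females Foxp2 was (-0.62). Zfpm2 was called in 3 of the 10 fits and lost without replicate 1 of the vehicle females (0.54) or without replicate 1, 3, 4 or 5 of the fluoxetine females (0.55 to 0.58). Sox5 was gained without replicate 4 (0.29) or 5 (0.31) of the vehicle females or 2 of the fluoxetine females (0.31).

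The wider lists had calls in both directions in WT females on fluoxetine, where 20.9% of all genes were called higher and 19% lower. Of the 28 other fate regulators 15 rose and 5 fell, with a median of 0.46 beside 0.01 over all genes. Tshz2 fell by 0.65, while Otx1, an Otx-family factor of deep-layer neurons, rose by 0.77, Rorb, the layer 4 nuclear receptor, by 0.63 and the LIM cofactor Lmo3 by 1.06. Of the 8 Tbr1 targets 4 rose and 3 fell, with a median of 0.22. Reln fell by 1.03 and Ntng1, a netrin-G adhesion protein, by 1.10, while Wnt7b rose by 0.62 and the NMDA receptor subunit Grin2b by 0.38 (adjusted p = 0.000602, 0.00106, 0.0102 and 0.0152). With the bulb covariates none of these 8 genes was called, and Rorb (-0.03), Ntng1 (0.10), Wnt7b (-0.12) and Grin2b (-0.07) changed sign. As above, the bulb markers did not overlap between the groups, so this fit cannot separate the drug from them. Wnt7b (0.48) and Grin2b (0.28) were not called without replicate 3 of the WT vehicle females.

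Lithium left the 9 factors without a call in females of either genotype. In WT females 0.00562% of genes were called and in HT females 0.0169%, and 0 members were called by limma, edgeR or DESeq2 or had an unadjusted p below 0.05. Tbr1 was at 0.47 in WT females (interval -0.08 to 1.01) and at 0.41 in HT females (interval -0.14 to 0.96). Fezf2 was at 0.56 and 0.63 in WT and HT females. Foxp2 was at 0.08 and -0.37 (intervals -0.43 to 0.59 and -0.88 to 0.14).

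The drugs were also compared with each other, sexes averaged, without vehicle libraries. Foxp2 was lower under fluoxetine than under lithium in WT mice, with a difference of -0.62 (log2, SE 0.18, adjusted p = 0.0142), the 1 member called where 18.8% of genes were. In WT mice Foxp2 ran from 163 to 288 (median 232) under fluoxetine and from 194 to 684 (median 341) under lithium, so the groups overlap at the low end of lithium. In HT mice it ran from 147 to 229 (median 209.5) and from 139.5 to 547 (median 309), a difference of -0.47 (log2, SE 0.18, adjusted p = 0.113). There 0 members were called by limma (1 at an unadjusted p below 0.05) where 4.41% of genes were, and edgeR and DESeq2 each called Foxp2. It was also called in HT mice without replicate 5 of the HT lithium females (-0.57) or replicate 3 of the HT lithium males (-0.60). The WT call held without each of 20 libraries (-0.71 to -0.51), but with the bulb covariates Foxp2 was at -0.35 in WT and -0.33 in HT mice, not called. In WT mice the striatal markers were high in 2 lithium libraries, which had 684 and 599 normalised reads of Foxp2, the 2 highest of that genotype and drug. With a covariate for the striatal list, Foxp2 was at -0.39 in WT mice (adjusted p = 0.0307) and -0.32 in HT mice (adjusted p = 0.116), and over all 14 alternatives the adjusted p ran from 0.00202 to 0.359 in WT and from 0.0066 to 0.264 in HT mice.

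In the same comparison of drugs in WT mice, 4 of the 28 other fate regulators were higher under fluoxetine and 2 lower. Otx1 (0.46), Rorb (0.39) and the nuclear receptor gene Nr2f1 (0.26) were higher and Tshz2 was lower (-0.31). Nr2f1 was not called without replicate 1 of the WT lithium females (0.23, adjusted p = 0.0526). Of the 8 Tbr1 targets Wnt7b was higher (0.47), and Reln (-0.63), Ntng1 (-0.67) and Auts2 (-0.24) were lower. Here 18.8% of all genes were called, and all 7 bulb markers were lower under fluoxetine (median -3.25). None of these 8 genes was called with the bulb covariates. Otx1 was then at 0.16, Rorb at 0.09, Nr2f1 at 0.08 and Tshz2 at -0.10, and Wnt7b was at 0.17, Reln at -0.06, Ntng1 at -0.03 and Auts2 at -0.09. In HT mice Auts2 alone was called (-0.23, SE 0.07, adjusted p = 0.0332), a call kept with the bulb covariates (-0.14, adjusted p = 0.00827), not kept with quantile normalization (-0.23, adjusted p = 0.0658) and kept in 14 of 20 fits without 1 library. It was lost without replicate 1 or 4 of the HT lithium males, replicate 2 of the HT lithium females, replicate 4 or 5 of the HT fluoxetine females or replicate 4 of the HT fluoxetine males (adjusted p up to 0.0917, Auts2 at -0.25 to -0.20 over the 20 fits).

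Males and females of the drug-treated groups did not differ by a called amount in any of the 9 factors, where 0.09% of genes were called. By limma, edgeR and DESeq2 the count was 0, and 0 had an unadjusted p below 0.05. Tbr1 was at -0.07 in males relative to females (interval -0.35 to 0.20). In vehicle mice 52.5% of all genes were called between the sexes. Of the 9 factors 2 were, both of the upper layers, a share below that of all genes. Pou3f2 was 0.43 higher in males (SE 0.07, adjusted p = 3.29e-07) and Cux2 was 0.36 lower (SE 0.11, adjusted p = 0.00417). In drug-treated mice neither was called. Over fits that left out 1 library, Pou3f2 lay there at -0.043 to -0.017 and Cux2 at 0.054 to 0.097. Pou3f2 stood at 847, 1120.2, 1131, 1223 and 1251 in WT and 1008, 1089, 1175, 1184 and 1298 in HT vehicle males, against 648, 761, 847, 943 and 957 in WT and 617, 818, 882, 959.5 and 993 in HT vehicle females. All vehicle males but 1 (847) were above all vehicle females for Pou3f2. Compared within males, both drugs had Pou3f2 lower than vehicle (-0.28 and -0.31 for fluoxetine and lithium in WT, -0.31 for lithium in HT, all called, and -0.23 for fluoxetine in HT, not called) and Cux2 higher (0.63 and 0.64 in WT, 0.47 and 0.44 in HT, all called). The share of all genes called in these comparisons of males was not counted.

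Around the group means, the factors varied with the marker lists to different degrees. Tbr1 rose with the mean of 6 cortical excitatory markers (Pearson r = 0.92, Spearman rho = 0.82 over 60 libraries, adjusted permutation p = 3.4e-05 and 2.7e-05) and fell with the bulb markers (r = -0.59, rho = -0.66, adjusted permutation p = 3.4e-05 and 2.7e-05). Without the 2 libraries farthest from the median of the list, r was 0.89 and -0.59. An adjusted p of that size comes from the smallest p the permutations can give, 1e-05. Bcl11b fell with the excitatory markers (r = -0.38, rho = -0.35, adjusted permutation p = 0.033 and 0.013), with r = -0.28 without the 2 farthest libraries. Its relation to the bulb markers (r = 0.36, rho = 0.28, adjusted permutation p = 0.042 and 0.054) was at r = 0.18 without the 2 farthest libraries and so depends in part on those 2. For the striatal list the 5 high libraries form a cluster of their own, and hold 5 of the 6 highest Foxp2 values (547 to 684, the other being replicate 4 of the WT vehicle males). Among the 55 other libraries Foxp2 had r = 0.27 and rho = 0.30 with that list (adjusted permutation p = 0.15 and 0.069 over 9 factors), which misses the threshold. Bcl11b had r = 0.35 and rho = 0.35 there (adjusted permutation p = 0.19 and 0.044, r = 0.44 without the 2 farthest libraries). Tle4, a layer 6 corepressor, had r = 0.47 and rho = 0.53 (adjusted permutation p = 0.057 and 0.0029). The relations over 60 libraries come from 27, of 9 factors with 3 lists, each with 100000 permutations within groups, and the libraries of a list and a gene share depth and scaling.

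**Figure D4:**
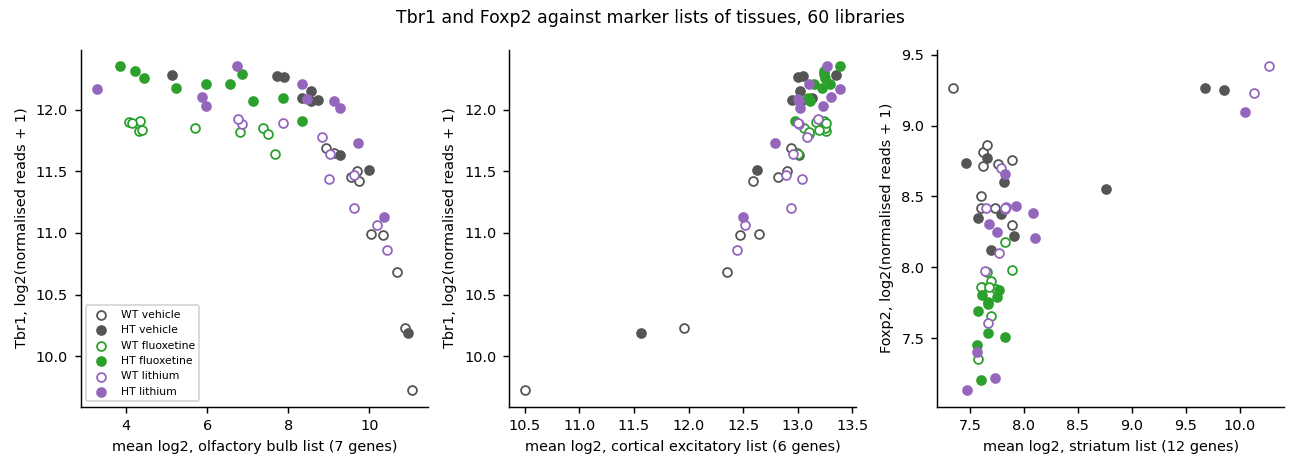
Tbr1 against the olfactory bulb and cortical excitatory lists and Foxp2 against the striatum list in the 60 libraries (x axes mean log2 value of the list, y axes log2 of normalised reads plus 1), open points WT and filled points HT, coloured by treatment. Tbr1 falls along the bulb axis and rises along the excitatory axis. The r values of -0.59 and 0.92 were computed after the group means were taken out, not on the points as plotted. The 5 libraries with a striatum mean of 9.68 or more have 547 to 684 normalised reads of Foxp2.

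Tbr1, Fezf2, Zfpm2 and Sox5 varied together (r = 0.96 for Tbr1 with Fezf2, 0.91 for Tbr1 with Zfpm2, 0.81 for Tbr1 with Sox5). Bcl11b, although it acts downstream of Fezf2, did not follow it (r = -0.08) or Tbr1 (r = -0.09), and went with Foxp2 (r = 0.70) and against Cux2 (r = -0.77). Tle4 went with Zfpm2 (r = 0.84) and also with Bcl11b (r = 0.53). The upper-layer factors Pou3f2 and Cux2 rose together (r = 0.72). These are descriptions over 60 libraries around 12 group means, and all pairs share the libraries and their depth.

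**Figure D5:**
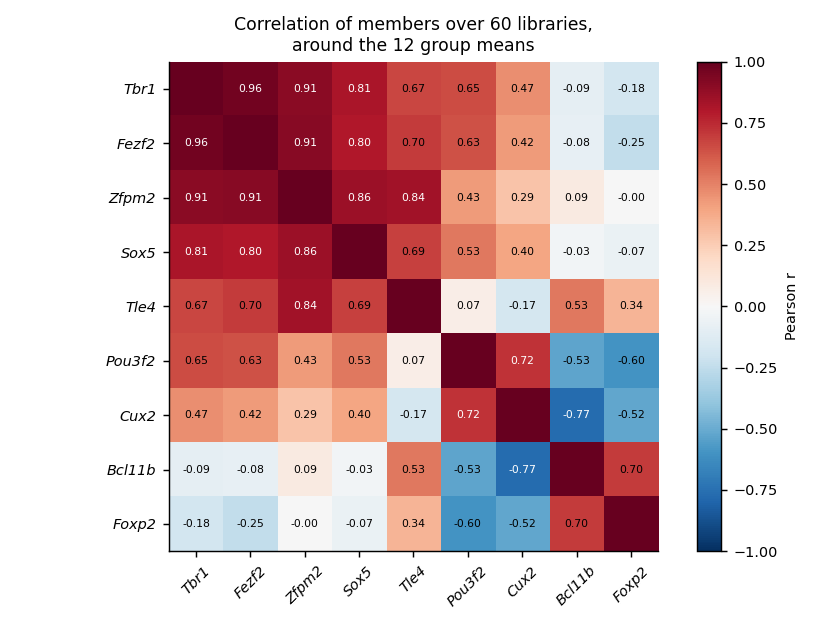
Pearson correlation of each pair of the 9 factors over 60 libraries after the group means were taken out (both axes genes, colour and number r). Tbr1, Fezf2, Zfpm2 and Sox5 correlate at 0.80 to 0.96, and Bcl11b is near 0 with them.

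The genes whose pattern was most like that of each factor were read from 12852 genes with a mean of at least 50, by Pearson r over the 60 libraries around the group means. For Tbr1 these included Kif5c, a kinesin heavy chain (0.99), Hspa12a (0.99), Arhgap44 (0.99) and Arhgap26 (0.98). For Fezf2 they were Sulf2 (0.98), Garnl3 (0.98) and Kcna6 (0.98), and for Zfpm2 Syt11, Dnm1 (0.95 each) and Nos1ap (0.94). Bcl11b was most like Sez6 (0.94), Sec14l5 (0.93) and Grik3 (0.91), and Foxp2 like Sema5b (0.86), Stxbp2 (0.81) and Syndig1l (0.81). Sox5 was most like Kif1a (0.88), Ank2 and Fam168a (0.87 each), and Tle4 like Nfasc (0.93), Dip2a and Nefh (0.91 each). Pou3f2 was most like Dpp4 (0.87), Car10 (0.84) and Exph5 (0.83), and Cux2 like Dusp18 (0.95), Rasgrf2, an upper-layer marker (0.89), and Exd2 (0.89). Such values over 60 shared libraries describe a pattern only.

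Because Tbr1 was the member that differed between genotypes, the promoters of the factors were searched for the T-box element AGGTGTGA or its reverse complement TCACACCT. RefSeq promoter windows (GRCm38.p6, mostly upstream of the annotated start) were matched for 7 members, with 9 windows. The element was in 0 of 9 windows, where 1.28% of 32851 windows held it. Its core GGTGTG (or CACACC) was in 2 of 9, in Sox5 and in Cux2, where 19.0% of all windows held it. The Sox5 window (chr6:143947057-143947356) lies inside the annotated gene (chr6:143828425-144781977, minus strand), not at its 5′ end. The Cux2 match runs into a TG repeat, and not every Cux2 window held the core. Both matches are shown because they are the only ones, with the core in capitals, in the direction of the gene (minus strand, GRCm38.p6), Sox5 at chr6:143947338-143947356 and Cux2 at chr5:122047965-122047994.
Sox5: tGGTGTGgctccttagaga
Cux2: ggaacatacaagGGTGTGtgtgtgtgtgtg
A match describes letters in a window, not a bound site, and neither Sox5 nor Cux2 was called between genotypes.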

How the data were processed

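Prefrontal cortex RNA-seq values were deposited for 60 libraries (TruSeq Stranded mRNA, per the labels' protocols). Each deposited value is a signal, gene reads divided by a size factor of the library, and whole reads were recovered for 100% of values (tolerance 1e-06). Size factors ran from 0.818 to 1.33 and depths from 23930164 to 36515331 reads (median 28721151). The submitters' processing notes name Salmon 0.11.2, R 3.6.0, DESeq2 1.19.11 and GRCm38, without roles. Symbols were matched for 18077 of 18088 genes from the GENCODE annotation.

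Because the values are normalised, limma 3.58.1 (R 4.3.3) with a mean-variance trend was fitted to log2(value + 1) over all 60 libraries and 12 group means, for the 17781 genes whose value reached 10 in 5 libraries, with Benjamini-Hochberg adjustment within each comparison. Fold changes are on that scale. The code was tested on simulated data. Alternatives changed the pseudocount, filter, normalization, weights, covariates, libraries and replicate block. edgeR 4.0.16 and DESeq2 1.42.0 on recovered reads, the covariates for cortical excitatory and layer 6 lists, the fit without vehicle males, vehicle sexes in place of drug-treated ones, the striatal relations in 55 libraries and the permutation test were added after seeing the data.

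The members and lists were chosen with earlier results of these data known. Named genes are the 9 members, up to 4 genes of smallest p from the lists of other fate regulators and Tbr1 targets where any was called, and the genes of most similar pattern (5 for Tbr1 and 3 for each other member). One of the 5 for Tbr1 is not reported here. Reln and Auts2 in the genotype comparisons fall outside that rule and were chosen after their values were seen.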

Additional observations from a re-analysis of the deposited data

Results flagged for a closer look

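Each group of 5 libraries was searched for a highest or lowest value far from the others, for the 9 factors (gap to the nearest library over the range of the group above 0.71). Of 108 groups 12 were flagged, where chance flags about 1 in 20. In the HT vehicle males, replicate 2 was low for Tbr1 (2909.3, the others 4362 to 4938) and Fezf2 (583.9, the others 844 to 918). Its bulb marker mean (log2) was the highest of the group, the others lying at 7.71 to 8.56. In the HT lithium males, replicate 1 was low for Tbr1 (2241.1, the others 4138 to 4743) and Fezf2 (298.7, the others 751 to 888), with a bulb marker mean of 10.36 against 3.27 to 9.27. The part of the bulb markers in these values was not tested.

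Bcl11b was high in replicate 4 of the WT fluoxetine males (2285.3, the others 1979.9 to 2021). It was low in replicate 3 of the HT lithium males (935.6, the others 2129.7 to 2494), whose bulb marker mean of 3.27 was below the 8.35 to 10.36 of the others, and in replicate 2 of the HT fluoxetine males (1637.9). Replicate 2 of the WT fluoxetine females was low for Tle4 (1120.0, the others 1281 to 1339.6) and Foxp2 (163.1, the others 229 to 252) and high for Pou3f2 (1096.1, the others 956 to 994). Foxp2 was also low in replicate 5 of the HT fluoxetine females (181.3, the others 214 to 223). Cux2 was high in replicate 3 of the HT vehicle males (3608.7, the others 2844 to 2929.8).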

How the results depend on the processing

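Of 196 alternatives for the counts of called members, 171 gave counts within 1.5 times the reported ones and 25 moved. The share of all genes called in the alternative fits was not counted, except for edgeR, DESeq2 and the sexes under vehicle. Whether these counts of members exceed that share is therefore not known for the other fits. With the bulb covariates 1 member was called between genotypes under fluoxetine, 1 under lithium, 0 for fluoxetine against vehicle in WT females and 0 for fluoxetine against lithium in WT. Library quality weights gave 3 between genotypes under vehicle, 2 averaged, 3 for lithium in WT females, 3 for the genotype by fluoxetine interaction, and 2 and 1 for fluoxetine against lithium in WT and HT. Fits of the compared groups only gave 1 between genotypes under fluoxetine (Tbr1) and 3 for fluoxetine against lithium in WT. Females alone, males alone and the fit without vehicle males gave 0, 0 and 0 between genotypes averaged. Males in place of females gave 3 for fluoxetine in HT, 2 for lithium in WT and 4 for lithium in HT. In these fits the drug and whatever sets the vehicle males apart cannot be told apart. The cortical excitatory covariate gave 0 for fluoxetine in WT females. The layer 6 covariate gave 1 between genotypes under vehicle and 2 for fluoxetine against lithium in WT. edgeR gave 1 for fluoxetine against lithium in HT, and DESeq2 gave 1 there and 1 between genotypes under vehicle. Over all genes tested, edgeR called 9 and DESeq2 805 between genotypes under vehicle where limma called 6, and 224 and 549 in the average where limma called 215. Vehicle mice in place of drug-treated mice gave 2 between the sexes. Leaving out 1 library at a time gave 0 to 4 between genotypes under vehicle, 1 to 2 averaged, 0 to 6 for fluoxetine in WT females, 0 to 1 for fluoxetine against lithium in HT, 1 in each of 20 fits in WT, and 0 elsewhere. The cause was not tested for any of these.

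Signs changed for fluoxetine against vehicle in WT females with the bulb covariates, to -0.23 for Tbr1, -0.31 for Fezf2, -0.31 for Zfpm2, -0.026 for Rorb, -0.083 for Nr2f1, 0.10 for Ntng1, -0.12 for Wnt7b, -0.066 for Grin2b and 0.073 for Auts2. Bulb marker levels did not overlap between those groups. With males in place of females Pou3f2 was at -0.28 for fluoxetine in WT, -0.31 for lithium in WT and -0.31 for lithium in HT, and Cux2 at 0.64 for lithium in WT and 0.435 for lithium in HT. In vehicle mice Pou3f2 was at 0.43 and Cux2 at -0.36 between the sexes. Of the 117 values of members (9 factors in 13 comparisons), 56 that were called neither without nor with the bulb covariates had opposite signs in the 2 fits. With a replicate block no call changed, and Tbr1 averaged was at 0.55 (adjusted p = 0.00522). Libraries with the same number did not deviate together in general (median correlation 0.005 over 330 pairs), and the numbers were used as names only. The range was -0.565 to 0.616, beside -0.547 to 0.743 for different numbers. A pairing within some groups only would not show in that median. The smallest member count was 120 reads (Foxp2). The parts of depth and of the spread between libraries in these comparisons were not tested.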
